A study of Rattus norvegicus with 12 samples.

Results

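The MAP kinase phosphatases and the Sprouty proteins switch off the signals that growth factors and cell stress send through MAP kinases. The genes described were Dusp1, Dusp4, Dusp5, Dusp6, Dusp10, Dusp14 and Dusp16, which code for dual-specificity phosphatases, and Spry1, Spry2 and Spry4, which code for Sprouty proteins. They were found as every probe set that the array annotation assigned to exactly 1 gene with one of these symbols. Of the 10 genes, 9 had such a probe set, with 12 probe sets in all, among 20826 probe sets of 1 gene and 14217 genes in the whole table. Dusp16 had none and was not analysed here.

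Male Sprague-Dawley rats of 8 weeks were used, and RNA of the left hemisphere of each brain was hybridised to 1 oligonucleotide array. There were 7 rats with middle cerebral artery occlusion (MCAO), which stops and then restores blood flow as a model of stroke, and 5 rats with sham surgery (Sham). The brains were collected at 24 h of reperfusion, and the labels state neither the occluded side nor how long the occlusion lasted. A hemisphere holds many cell types, and injured and uninjured tissue together if it was the occluded one. For every result below, a changed number of cells of a type and a changed amount of RNA per cell therefore cannot be told apart.

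MAP kinases such as ERK, JNK and p38 are switched on by phosphate groups on a threonine and a tyrosine, and MAP kinase phosphatases remove both. Many of these phosphatase genes are themselves turned on by the kinase pathway that their product silences, which makes a negative feedback loop. Sprouty proteins are induced by growth factor receptors in the same way and block the signal further upstream, between receptor and Ras-ERK kinases. In brain, Dusp1, Dusp5 and Dusp6 are known as genes that respond within minutes to hours to synaptic activity and injury.

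Among these genes, 4 were higher in MCAO: Dusp5, Dusp6, Spry1 and Spry2. Dusp5 changed most, with a mean 2.03 times that of Sham, and the other 3 were between 1.30 and 1.38 times as high. Dusp1 lay below the Sham mean in 6 of the 7 MCAO rats and Dusp14 in 5 of them, the others lay above it, and neither gene passed the test. The signals of Dusp4, Dusp10 and Spry4 were almost the same number in all 12 arrays, as for 62.5% of the gene probe sets in the deposited table. Such near-constant values, with an SD under 0.01 over the arrays, carry no reading of whether a gene changed.

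The test, limma with Benjamini-Hochberg adjustment, covered 12153 genes, of which 8 were genes of this set, and 6 of those 8 varied. Of the 6, 4 were called higher and 0 lower (limma, with 0 of them lower at an unadjusted p under 0.05). Of all genes tested 22.2% were called higher and 22.1% lower. Among the varying genes 35.2% were called higher and 34.2% lower, so calls were frequent in the whole table. The median log2 change of all varying genes was 0.03, with quartiles of -0.27 and 0.31.

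**Figure D1:**
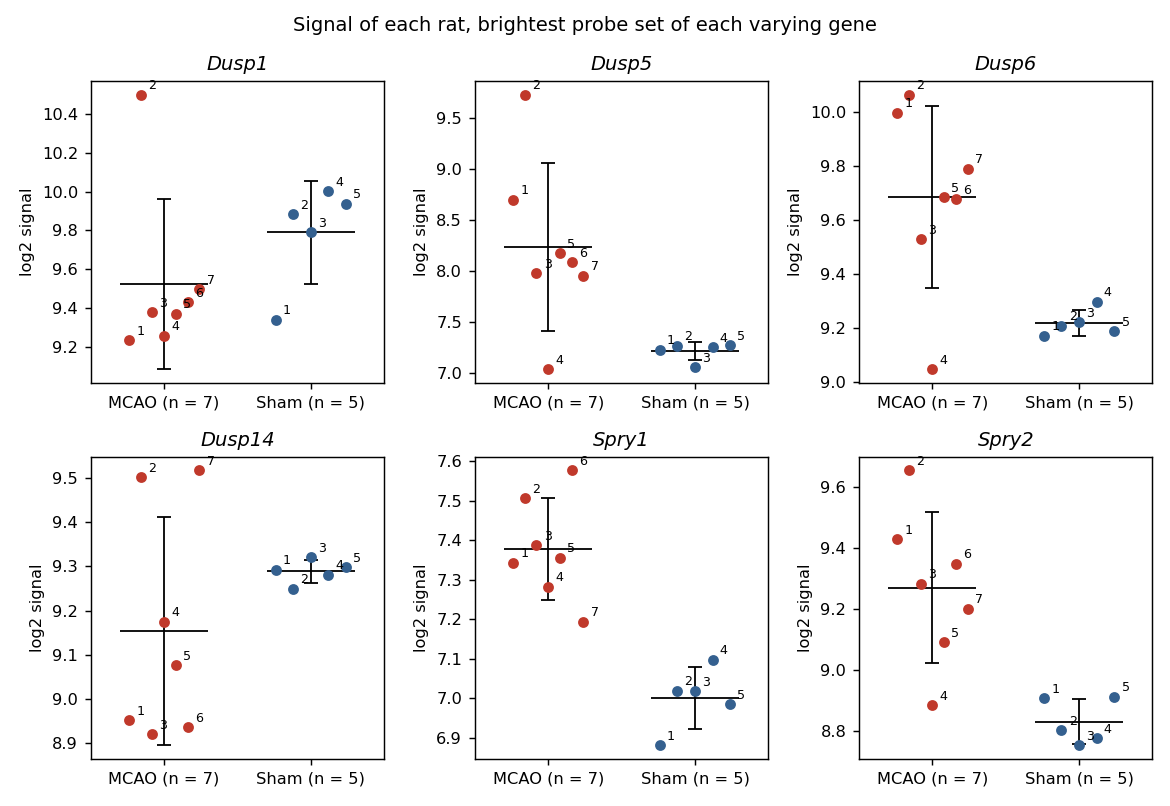
Log2 signal (vertical axis) of the brightest probe set of the 6 varying genes in the 7 MCAO rats (red, left) and the 5 Sham rats (blue, right), with each rat's number. Lines and bars are the mean and SD, and the points of Spry1 in MCAO, from 7.19 upward, all lie above the Sham maximum of 7.10.

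Sequence upstream of the annotated transcript start is shown for Dusp1, Dusp5 and Spry2, as 3 examples of promoters with matches to motifs of stimulus-responsive genes, among 8 genes of the set matched to a promoter. Dusp14 and Spry4 held matches too and are described without their letters. The sequences are from RefSeq on the GRCr8 build and cover the 250 bases before the start, read 5′ to 3′ along the gene. Dusp1 lies at chr10:17184603-17184852 on the plus strand, Dusp5 at chr1:262543524-262543773 on the plus strand, and the first of 2 Spry2 starts at chr15:89111927-89112176 on the minus strand. Capitals mark the cAMP response element TGACGTCA, its core TGACG, the CArG box bound by serum response factor, and the ETS site CCGGAA. The AP-1 site TGANTCA was searched as well, and all motifs were sought on both strands.
Dusp1: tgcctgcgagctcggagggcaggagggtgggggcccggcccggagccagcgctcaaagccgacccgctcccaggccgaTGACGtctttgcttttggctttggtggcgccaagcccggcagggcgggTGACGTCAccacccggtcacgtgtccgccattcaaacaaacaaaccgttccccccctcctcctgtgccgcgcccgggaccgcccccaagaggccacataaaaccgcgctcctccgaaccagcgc
Dusp5: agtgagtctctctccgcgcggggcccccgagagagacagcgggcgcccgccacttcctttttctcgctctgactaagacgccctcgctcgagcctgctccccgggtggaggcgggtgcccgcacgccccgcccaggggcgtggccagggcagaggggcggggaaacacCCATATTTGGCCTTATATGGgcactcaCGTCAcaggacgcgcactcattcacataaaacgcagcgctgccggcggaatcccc
Spry2: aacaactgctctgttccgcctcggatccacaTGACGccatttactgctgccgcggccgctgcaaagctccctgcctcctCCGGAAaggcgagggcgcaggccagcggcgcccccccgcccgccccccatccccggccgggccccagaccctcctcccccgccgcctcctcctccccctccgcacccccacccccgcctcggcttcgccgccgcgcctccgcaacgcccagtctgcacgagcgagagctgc

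The upstream stretch of Dusp1 held a full cAMP response element from base -124 to -117 and a further core from -172 to -168. A full element was present in 1.59% of 33469 rat promoters of the same length, and a core, which every full element contains, in 18.2%. Dusp5 held a pair of CArG boxes directly beside each other, from -82 to -73 and from -72 to -63, and a cAMP response element core from -55 to -51. A CArG box was found in 1.5% of all promoters. The Spry2 stretch held a core from -219 to -215 and an ETS site from -171 to -166, and an ETS site was found in 12.6% of all promoters. Of the 3 annotated starts of Dusp14, the second had an ETS site from -89 to -84, and the third had an AP-1 site from -89 to -83 and a core from -77 to -73. An AP-1 site was found in 6.34% of all promoters. Spry4 had an ETS site from -81 to -76. The stretches of Dusp6, Dusp10 and Spry1, the first start of Dusp14 and the second start of Spry2 held none of these motifs. These matches describe letters, not binding.

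**Figure D2:**
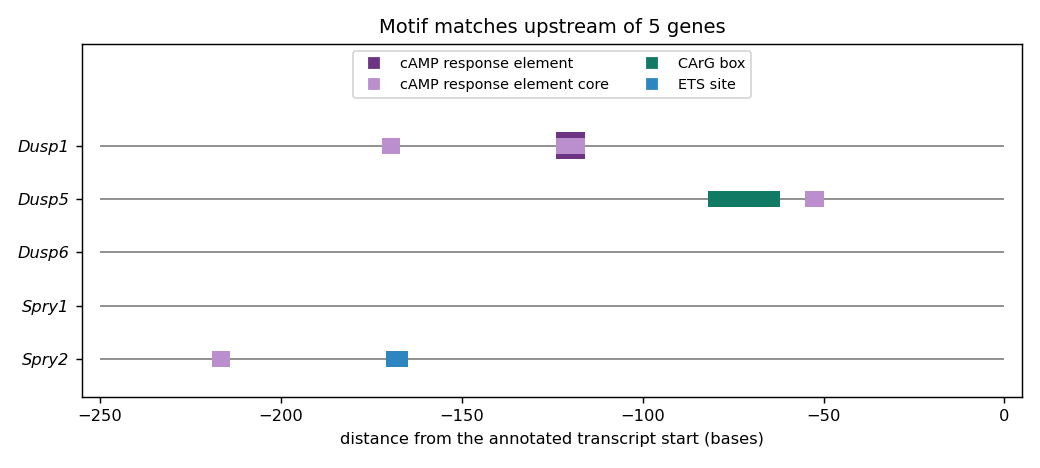
Positions of motif matches upstream of 5 of the 8 genes with a promoter, as distance in bases from the annotated transcript start (horizontal axis). Dusp1 carries the cAMP response element, Dusp5 the adjacent CArG boxes, Spry2 a core and an ETS site, and Dusp6 and Spry1 none.

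Dusp1 (Entrez Gene 114856) codes for a nuclear phosphatase that acts mainly on p38 and JNK and is a classic immediate early gene. Its log2 signal was 9.23 at the lowest, 9.38 at the median and 10.50 at the highest in the 7 MCAO rats. The 5 Sham rats had 9.34, 9.88, 9.79, 10.002 and 9.94. The groups overlapped in both directions: MCAO rat 2 was higher than all Sham rats, while Sham rat 1 lay within the range of the other MCAO rats. The MCAO mean was 9.52 ± 0.44 (SD, n = 7), the Sham mean was 9.79 ± 0.26 (SD, n = 5), and the log2 change was -0.27 ± 0.22 (SE), which did not pass (limma adjusted p = 0.358).

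A second Dusp1 probe set gave the same picture. It had 7.27 at the lowest, 7.43 at the median and 8.51 at the highest in MCAO, against 7.23, 7.72, 7.80, 8.07 and 7.86 in Sham. Its change was -0.18 ± 0.22 (adjusted p = 0.568 in the limma fit of all 17238 probe sets). In both probe sets MCAO rat 2 was the highest of all 12 arrays. Without that rat, the change of the brighter probe set was -0.43 (limma adjusted p = 0.0117), past the threshold and lower in MCAO.

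Dusp5 (Entrez Gene 171109) codes for a nuclear phosphatase specific for ERK. Its log2 signal in MCAO was 7.04 at the lowest, 8.09 at the median and 9.73 at the highest. In Sham it was 7.23, 7.27, 7.06, 7.26 and 7.27. Of the 7 MCAO rats 6 lay above all Sham rats, most in rats 2 and 1, and MCAO rat 4 lay just below all of them. The MCAO mean was 8.24 ± 0.82 (SD, n = 7), the Sham mean was 7.22 ± 0.09 (SD, n = 5), and the log2 change was 1.02 ± 0.37 (SE, limma adjusted p = 0.0445).

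The 95% confidence interval of the Dusp5 change ran from 0.20 to 1.84. The call was close to the threshold and ended when any 1 of 10 of the 12 arrays was left out, with an adjusted p of up to 0.0917 (limma). It held without MCAO rat 2 (0.77) and without MCAO rat 4 (1.22).

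Dusp6 (Entrez Gene 116663) codes for a cytoplasmic phosphatase that is specific for ERK and is widely read as a marker of growth factor signalling. The brightest of its 3 probe sets had 9.05 at the lowest, 9.68 at the median and 10.06 at the highest in MCAO. The Sham rats had 9.17, 9.21, 9.22, 9.30 and 9.19. As for Dusp5, 6 MCAO rats lay above all Sham rats and MCAO rat 4 lay below all of them. The MCAO mean was 9.68 ± 0.34 (SD, n = 7), the Sham mean was 9.22 ± 0.05 (SD, n = 5), and the log2 change was 0.47 ± 0.15 (SE, limma adjusted p = 0.0295).

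The second Dusp6 probe set rose too, by 0.45 ± 0.13 (adjusted p = 0.0199 in the limma fit of all probe sets, which called 37% of the varying probe sets higher). It ranged from 8.96 to 9.92 in MCAO, against 8.89 to 9.09 in Sham. The third and dimmest had a change of 0.10 ± 0.10 that did not pass (adjusted p = 0.439), with a range of 7.26 to 7.88 in MCAO, against 7.47 to 7.61 in Sham. The probe sets of Dusp6 thus differed in whether they were called, while all 3 had MCAO rat 4 as the lowest MCAO rat. The call of the brightest probe set ended in 6 of the 12 fits without 1 array: without MCAO rat 1 or 7, or Sham rat 1, 2, 3 or 5 (limma adjusted p up to 0.0606).

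**Figure D3:**
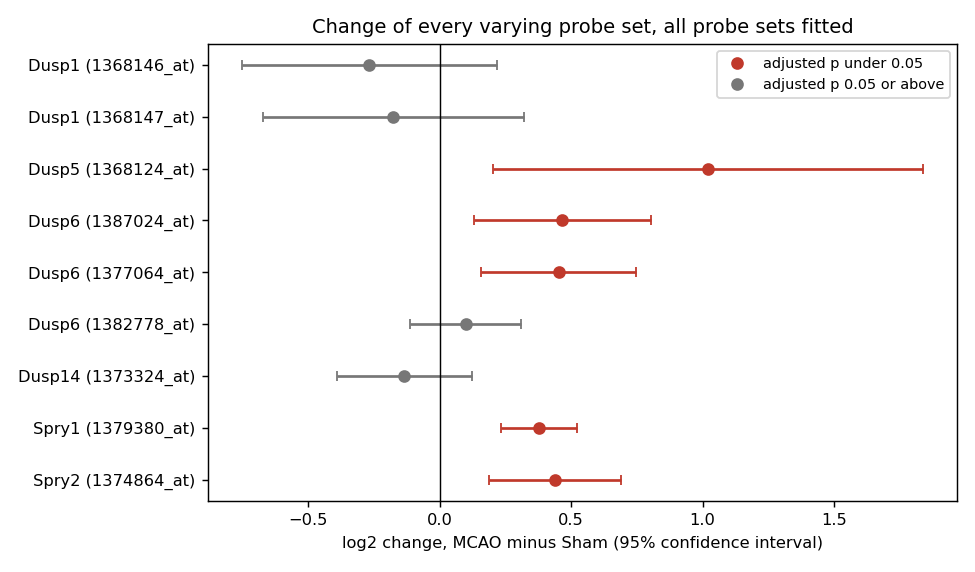
Log2 change, MCAO minus Sham, with its 95% confidence interval (horizontal axis) for the 9 varying probe sets in the limma fit of all 17238 probe sets. Red points passed the threshold, and of the probe sets drawn only those of Dusp5, Spry1, Spry2 and 2 of Dusp6 did.

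Dusp14 (Entrez Gene 360580) codes for a small phosphatase without the kinase-docking domain of the others. Its log2 signal in MCAO was 8.92 at the lowest, 9.08 at the median and 9.52 at the highest. In Sham it was 9.29, 9.25, 9.32, 9.28 and 9.30. No MCAO rat lay inside the narrow Sham range: 5 lay below it, and MCAO rats 2 and 7 lay above it. The MCAO mean was 9.15 ± 0.26 (SD, n = 7), the Sham mean was 9.29 ± 0.03 (SD, n = 5), and the change of -0.13 ± 0.12 (SE) did not pass (limma adjusted p = 0.384, 95% confidence interval -0.39 to 0.12).

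Spry1 (Entrez Gene 294981) codes for a Sprouty protein that restrains FGF and other receptor tyrosine kinase signals. Its log2 signal was 7.19 at the lowest, 7.36 at the median and 7.58 at the highest in MCAO. The Sham rats had 6.88, 7.02, 7.02, 7.10 and 6.98. It was the 1 gene of this set whose lowest MCAO rat exceeded the highest Sham rat, which held for 17.9% of the varying genes. The MCAO mean was 7.38 ± 0.13 (SD, n = 7), the Sham mean was 7.00 ± 0.08 (SD, n = 5), and the log2 change was 0.38 ± 0.06 (SE), with limma adjusted p = 0.00208. The call held in each of the 27 alternatives tried. Spry1 had 1 probe set, so the alternatives for filter and choice of probe set could not alter its values, only the genes tested beside it.

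Spry2 (Entrez Gene 306141) codes for another Sprouty protein, which can also bind the ubiquitin ligase Cbl. It had 8.89 at the lowest, 9.28 at the median and 9.66 at the highest in MCAO. The Sham rats had 8.91, 8.80, 8.75, 8.78 and 8.91. MCAO rat 4 lay within the Sham range and the other 6 lay above it. The MCAO mean was 9.27 ± 0.25 (SD, n = 7), the Sham mean was 8.83 ± 0.07 (SD, n = 5), and the log2 change was 0.44 ± 0.11 (SE, limma adjusted p = 0.0108).

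The near-constant probe sets need no further description. Dusp4, an ERK and JNK phosphatase of the nucleus, read 6.65 in all 12 arrays, and Spry4 read 7.93 in all of them. Dusp10, which acts on JNK and p38, read 6.41 in every array and lay below the filter on low values (a log2 signal above 6.61 in at least 5 arrays).

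All 9 varying probe sets, which stand for 6 genes, had a wider spread among the MCAO rats than among the Sham rats. So did 88.6% of all 8438 varying probe sets on the array, so the wider spread is not particular to these genes. The SD ratio, MCAO over Sham, ran from 1.39 for the dimmer Dusp1 probe set to 9.89 for Dusp14. MCAO rat 2 was the highest MCAO rat in 6 of the 9 probe sets and MCAO rat 4 the lowest in 5. Since Dusp6 counts 3 times and Dusp1 2 times here, these counts are not of independent genes. The same counts were not made over all varying probe sets, so this order is not shown to be particular to these genes. Dusp5, Spry2 and 2 probe sets of Dusp6 had both rats at these ends. The second brightest Dusp6 probe set was highest in rat 1. Dusp1 was lowest in rat 1 or, in its dimmer probe set, rat 5. Dusp14 was highest in rat 7 and lowest in rat 3, and Spry1 was highest in rat 6 and lowest in rat 7.

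**Figure D4:**
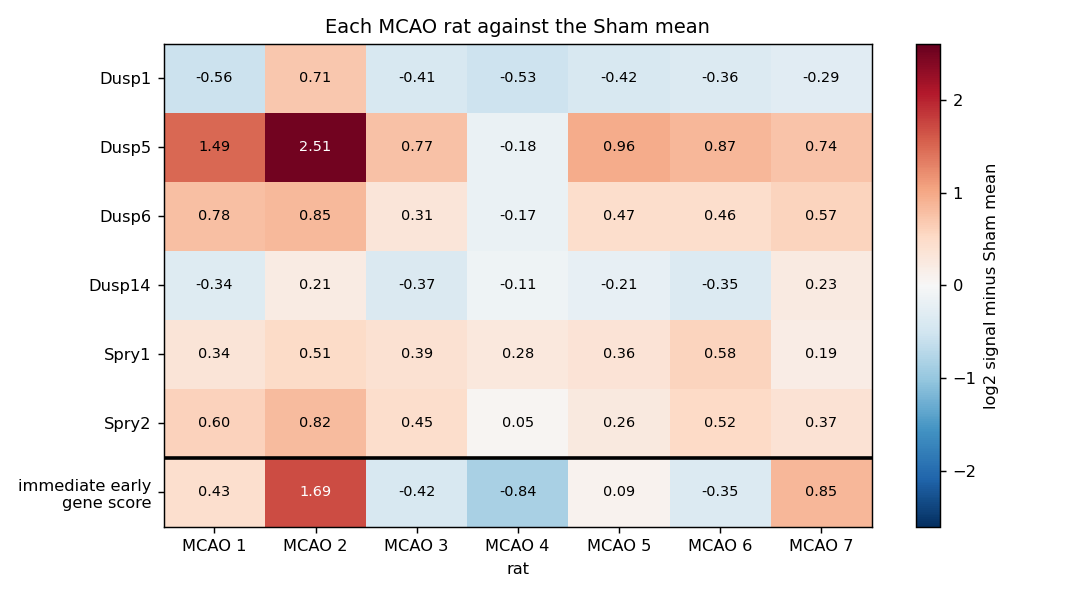
Log2 signal minus the Sham mean (colour and printed number) in the 7 MCAO rats (columns). Rows are the brightest probe set of each of the 6 varying genes and the immediate early gene score. Rat 2 is the highest for Dusp1, Dusp5, Dusp6, Spry2 and the score, and rat 4 is the lowest for Dusp5, Dusp6, Spry2 and the score.

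The rats were next set against genes that respond to neuronal activity. The score of a rat was the mean, over 8 varying immediate early genes (Fos, Egr1, Egr2, Egr4, Arc, Nr4a1, Nr4a3 and Junb), of the log2 signal minus the Sham mean. It ran from -0.84 in MCAO rat 4 to 1.69 in MCAO rat 2, with a median of 0.09, against -0.09 to 0.23 in Sham. The MCAO rats thus spread on both sides of the Sham range. Of these 8 genes 2 were called, both higher: Fos, a subunit of AP-1 (1.52 ± 0.48, limma adjusted p = 0.0261), and Junb, another (0.74 ± 0.22, adjusted p = 0.0197). Arc, which marks active synapses, read 10.25 in MCAO rat 2 and 7.13 to 8.02 in the other MCAO rats, against 7.79 to 8.46 in Sham.

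Within the 7 MCAO rats, the relation of each called gene to this score was tested by an exact two-sided permutation over 5040 pairings. The adjustment was over 4 genes, and each gene was read from its brightest probe set alone. For Dusp6, Pearson's r was 0.84 (exact p = 0.0188, adjusted p = 0.0377) and Spearman's rho was 0.96 (exact p = 0.00278, adjusted p = 0.0111). The other Dusp6 probe sets were not tested. The second brightest had another order, with 9.92 in MCAO rat 1, 9.53 in rat 6 and 9.52 in rat 2. For Dusp5, r was 0.85 (exact p = 0.0147, adjusted p = 0.0377), while rho was 0.64 (exact p = 0.139, adjusted p = 0.222). For Spry2, r was 0.73 (exact p = 0.0625, adjusted p = 0.0833) and rho was 0.61 (exact p = 0.167, adjusted p = 0.222). For Spry1, r was 0.07 (exact p = 0.877, adjusted p = 0.877) and rho was 0.00 (exact p = 1, adjusted p = 1).

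MCAO rats 2 and 4 lay farthest from the median score, and leaving them out left 5 rats over a narrower range of the score. In these, r was 0.71 for Dusp6 (exact p = 0.175) and 0.22 for Dusp5 (exact p = 0.775), so the linear relation of Dusp5 rested on rats 2 and 4, while that of Dusp6 kept most of its size but did not pass in 5 rats. It was -0.14 for Spry2 (exact p = 0.842) and -0.83 for Spry1 (exact p = 0.0917). Dusp1 and Dusp14 were added to the family after their values were seen. For Dusp1, r was 0.79 and rho 0.54 (exact p = 0.0335 and 0.236, adjusted over 6 genes 0.0671 and 0.283), and r without the same 2 rats was 0.09 (exact p = 0.875). For Dusp14, r was 0.72 and rho 0.57 (exact p = 0.0734 and 0.2, adjusted over 6 genes 0.0881 and 0.283). Its r without these rats was 0.81 (exact p = 0.0583). The relation to the score was not tested over all varying genes, so no relation given here is shown to be particular to these genes.

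**Figure D5:**
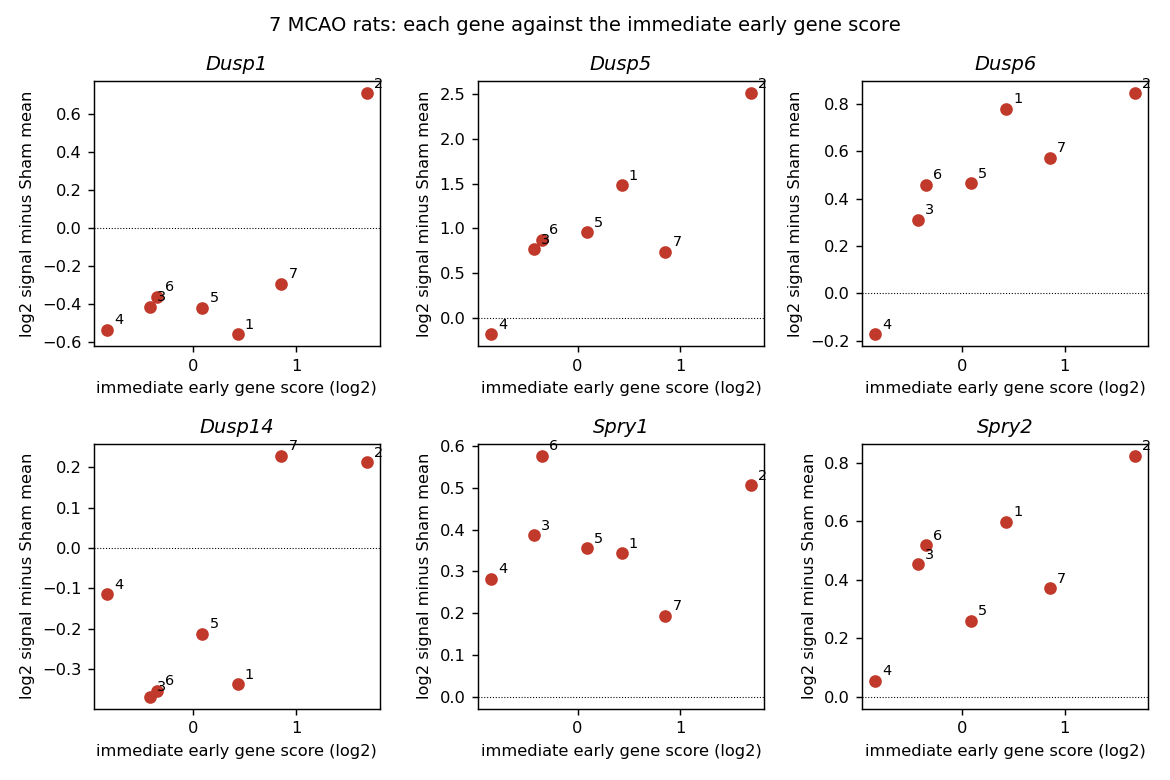
Log2 signal minus the Sham mean (vertical axis) against the immediate early gene score (horizontal axis) for the brightest probe set of 6 genes. Each of the 7 MCAO rats is 1 point with its number. The Dusp6 probe set drawn is ordered nearly as the score (rho 0.96), and rat 2 is the point at the right end for every gene.

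The genes whose pattern over the 12 arrays was most like that of each called gene were sought among 6333 varying genes, after each group's mean was subtracted. For Dusp5 the closest were Dusp2, another nuclear MAP kinase phosphatase (r = 0.97), Etv3 (r = 0.96) and Bcor (r = 0.96). Dusp2 was itself called higher in MCAO (0.64 ± 0.23, limma adjusted p = 0.046). For Dusp6 they were Sorcs3 (r = 0.97), Coq10b (r = 0.97) and Cbr3 (r = 0.97). For Spry2 they were Ppp1r15a, a regulator of translation after stress (r = 0.96), Xpo1, a nuclear export receptor (r = 0.94), and Dtx1 (r = 0.93). For Spry1 they were Acat2 (r = 0.94), the splicing factor gene Srsf2 (r = 0.89) and Klf2 (r = 0.88). These r values describe the 12 arrays, share the same rats and normalization, and were picked as the highest of many.

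Other genes of the pathway were counted by list. Among all varying genes 35.2% were called higher and 34.2% lower, so calls in both directions within a list are no result about the pathway. Upstream, a list of receptor ligand and FGF family genes had 9 varying genes. Of these 3 were called higher and 2 lower, with a median log2 change of 0.41. Hbegf, a ligand of the EGF receptor, was 1.34 ± 0.20 higher (limma adjusted p = 0.00145) and Fgf2, a fibroblast growth factor, 1.03 ± 0.17 higher (adjusted p = 0.00201). The 2 called lower were Fgf13 (-0.47 ± 0.09) and Fgf12 (-0.42 ± 0.10, named after its value was seen). Both code for members of the FGF family that stay inside the cell. The other 4 varying genes of the list were not called: Fgf1, Vegfa and Bdnf, with positive changes, and Fgf9 (-0.19 ± 0.09). Of 9 varying receptor tyrosine kinase genes 4 were higher and 3 lower, with a median of 0.03. Fgfr1 was 0.61 ± 0.09 higher and Fgfr2 changed by -0.28 ± 0.08 (adjusted p = 0.00155 and 0.0141), so members of the FGF receptor family were called in opposite directions.

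Of 10 varying genes of the Ras-ERK cascade 5 were higher and 2 lower, with a median of 0.22. The adaptor gene Shc1 (0.84 ± 0.13) and the small GTPase gene Rras (0.59 ± 0.10) were the strongest, and the kinase gene Araf was lower (-0.21 ± 0.06). Of 9 varying genes of the JNK and p38 cascades 4 were higher and 3 lower, with a median of 0.10. The p38-activated kinase genes Mapkapk3 (0.71 ± 0.10) and Mapkapk2 (0.58 ± 0.08) were higher, whereas Mapk8, which codes for a JNK, was lower (-0.31 ± 0.09).

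A list of ERK-responsive transcription factors and targets had the largest median of these lists, 0.85 over 17 varying genes. Of these, 10 were called higher and 2 lower. The list holds factor genes such as Elk1, Elk3 and Srf, and its median is the change of Elk3, so it does not describe ERK-induced genes alone. It shares Fos, Junb, Egr1 and Egr2 with the immediate early gene list. The transcription factor gene Myc was 1.93 ± 0.25 higher and the cyclin gene Ccnd1 0.98 ± 0.13 higher (limma adjusted p = 0.000948 and 0.000976). Etv5, an ETS factor that is induced along with Dusp6 and Sprouty genes in FGF signalling in other settings, was lower by contrast (-0.71 ± 0.12, adjusted p = 0.00225). The ETS factor gene Etv1, picked after its value was seen, was the other gene called lower (-0.43 ± 0.10).

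Related phosphatases, not all of them feedback genes, and other receptor inhibitors were counted in the same way. Of 9 other varying phosphatase genes 5 were higher and 3 lower, with a median of 0.29. Dusp7, an ERK phosphatase of the cytoplasm, was 0.29 ± 0.05 higher and Dusp15 was lower (-0.42 ± 0.07). The nuclear MAP kinase phosphatase gene Dusp2, named above, was in this list too and was higher (0.64 ± 0.23). Of 6 other varying inhibitors of receptor signalling 3 were higher and 1 lower, with a median of 0.29. Errfi1, an inhibitor of the EGF receptor, was 0.88 ± 0.17 higher (limma adjusted p = 0.00325) and the ubiquitin ligase gene Cblb 0.40 ± 0.06 higher. Spry3, the remaining Sprouty gene on the array, went the opposite way from Spry1 and Spry2, with a change of -0.53 ± 0.12 (adjusted p = 0.00598).

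Cell type markers differed between the groups as well, and their part in the changes above was not tested. The score of a marker list is the mean log2 signal of its varying genes minus the Sham mean, tested over every split of the 12 arrays (exact permutation, two-sided, adjusted over 9 lists). All 5 varying neutrophil and monocyte markers of 12 listed were higher, with a score of 0.69 to 1.79 in MCAO, against -0.07 to 0.08 in Sham (exact p = 0.00126, the smallest possible, adjusted p = 0.00379). Of 8 varying microglia markers 6 were higher and 2 lower, with a score of 0.19 to 0.75 in MCAO, against -0.12 to 0.19 in Sham (adjusted p = 0.00379 by the same exact test).

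Striatal neuron markers were lower in 8 of 9 varying genes, with a score of -0.89 to -0.57 in MCAO, against -0.05 to 0.06 in Sham (exact test, adjusted p = 0.00379). Of 10 neuron markers 5 were lower and 1 higher, with a score of -0.35 to -0.07 in MCAO, against -0.06 to 0.07 in Sham (exact test, adjusted p = 0.00568). MCAO rat 2, the highest in the immediate early gene score, was the MCAO rat nearest to Sham in the striatal neuron (-0.57) and neuron (-0.07) scores. The same rat was nearest to Sham in the microglia (0.19) and neutrophil and monocyte (0.69) scores. How far the relations to the immediate early gene score follow these marker scores was not tested. The score of 4 varying oligodendrocyte precursor markers was -0.40 to 0.06 in MCAO, against -0.08 to 0.09 in Sham (exact test, adjusted p = 0.0477). Of 9 varying astrocyte markers 2 were called higher and 5 lower, so that their score, -0.13 to 0.20 in MCAO, against -0.03 to 0.03 in Sham, did not pass (exact test, adjusted p = 0.79). Gfap, the filament gene of reactive astrocytes, averaged 12.60 in MCAO and 10.69 in Sham, a log2 change of 1.91 ± 0.12 (limma adjusted p = 5.2e-05), whereas Aldh1l1, a general astrocyte marker, changed by -0.78 ± 0.13 (limma adjusted p = 0.00176). Of 8 varying oligodendrocyte markers 0 were higher and 3 lower (limma), of 8 endothelial markers 4 were higher and 1 lower, and of 6 pericyte and fibroblast markers 1 was higher and 0 were lower. The scores of these 3 lists did not pass (adjusted p = 0.0985, 0.206 and 0.714 by the exact test). The 4 tested lymphocyte markers were all near-constant. The beta-actin control probe sets, whose 3′ signal less 5′ signal reads RNA integrity, gave 1.27 to 1.47 in MCAO, against 1.40 to 1.46 in Sham (exact permutation p = 0.077).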

How the data were processed

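The deposited table holds log2 values made by the authors, as judged from their range, since the table states no log base. How background, summarization and normalization were handled is not given in the sources used here. Per the labels' protocols, TRIzol-extracted RNA was cleaned on a column and labelled with biotin. The 12 array medians lay between 7.23 and 7.27, so no further normalization was applied. With arrays, precision is limited by their number.

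A probe set of 1 gene was kept if 5 or more arrays had a log2 value over 6.61, the 25th percentile, and the brightest probe set stood for each gene. The comparison of MCAO with Sham used limma 3.58.1 (R 4.3.3, eBayes with trend, two-sided), adjusted over all 12153 genes, with a threshold of 0.05. A second fit took all 17238 probe sets singly. The fit was tested on simulated data with the same spread in both groups, so its behaviour under the wider spread in MCAO was not tested. Each array is labelled as its own rat, and p-values measure the spread between these arrays. In MCAO 6 the control probe sets were shifted by 12 positions and were realigned for RNA integrity.

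Motifs were searched with exact letters in RefSeq promoters. All members were described. Of each pathway list the 2 genes with the strongest statistic were named, with the strongest of the minority direction, and 3 genes most like each called member. Members and lists were chosen with earlier results of these data known. Alternatives covered normalization, filter, choice of probe set, variance model, array weights, a replicate block, near-constant probe sets and leaving out each array.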

Additional observations from a re-analysis of the deposited data

Results flagged for a closer look

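In each of 18 groups (9 varying probe sets in MCAO and in Sham), the gap between the most extreme rat and its neighbour was compared with the group's range by Dixon's test. Chance gives such a gap in about 1 in 20 groups, and 3 were found. The groups share rats, and some share a gene, so they are not independent and the 3 cannot be weighed against that rate. For Dusp1, MCAO rat 2 stood apart as the highest MCAO rat in both probe sets, at 10.50 on the log2 scale with the next rat at 9.50, and at 8.51 with the next at 7.57. For Dusp5, Sham rat 3 stood apart as the lowest Sham rat, at 7.06 with the next at 7.23.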

How the results depend on the processing

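No alternative turned the direction of the change of any of the 6 varying genes. The 4 genes called higher stayed 4 under 3 other normalizations, other filters and other choices of probe set. They also stayed 4 under other variance models, array weights and without near-constant probe sets. Of the 4, only Dusp6 has more than 1 probe set, so the choice of probe set could change the values of that gene alone. Leaving out each array gave 2 to 4 genes called higher and 0 to 1 called lower, and array weights gave 1 called lower (Dusp1, -0.41, limma adjusted p = 0.0248). Over all genes, the calls numbered 2698 higher and 2688 lower. With the replicate numbers as a block, on the 10 arrays whose number occurs in both groups, they were 1548 and 1535, and the 4 genes became 1 (Spry1), with an adjusted p of 0.119 for Dusp5, 0.159 for Dusp6 and 0.0718 for Spry2 (limma). On the same 10 arrays without the block, an alternative chosen after the data were seen, 2 of the 4 were called. Deviations of same-numbered arrays correlated at 0.32, 0.54, -0.33, -0.05 and 0.16 for numbers 1 to 5, so not every pair was above 0.1 and the numbers were not taken to pair the rats. That 3 of 5 MCAO arrays correlated best with their own number is a hint from the data, not the design. For the relation to the immediate early gene score, Dusp5 no longer passed with Spearman's rho (0.64). Its Pearson's r did not pass without the 2 rats (0.22) or adjusted over 6 genes (0.85, exact permutation, adjusted p = 0.0565). Pearson's r of Dusp6 no longer passed without the 2 rats (0.71) or adjusted over 6 genes (0.84, adjusted p = 0.0565 by the same test). The rho of Dusp6 (0.96) still passed over 6 genes (exact permutation, adjusted p = 0.0167). Without the 2 rats the sign turned for Spry1 (-0.83) and Spry2 (-0.14). The cause was not tested. Probe sets near the background were not identified, since the table holds no detection calls.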

Other observations

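The 6 varying genes were also set against each other within the 7 MCAO rats, in 15 pairs chosen after the data were seen. The highest Pearson correlations were those of Dusp5 with Spry2 (r = 0.93, exact permutation p = 0.00833), Dusp5 with Dusp6 (r = 0.89, exact p = 0.0121) and Dusp6 with Spry2 (r = 0.86, exact p = 0.0169). None of them passed after adjustment over the 15 pairs (adjusted p = 0.0843 for each of these 3, two-sided). Spearman's rho was 0.79 (exact p = 0.048), 0.79 (exact p = 0.048) and 0.71 (exact p = 0.0881) for the same pairs, with adjusted p of 0.36, 0.36 and 0.44. Without the 2 rats farthest from the median of the first gene of each pair, r was 0.56, 0.81 and 0.44. Spry1 and Spry2, which code for related proteins and were both called higher, had r = 0.59 (exact p = 0.158) and rho = 0.57 (exact p = 0.2).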
